A study of Mus musculus with 26 samples.

Results

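CTCF M-ChIP was compared with CTCF ChIP made with Nextera adaptors through the peak lists of 4 of the 26 samples of the series, 2 libraries in each group. Every library came from KH2 mouse embryonic stem cells (mESC), which were grown on irradiated feeder cells with LIF and separated from the feeders by pre-plating. In both groups chromatin was sonicated, bound by a Millipore antibody to CTCF and tagmented by a Tn5 transposase. In the CTCF-M-ChIP group Tn5 carried methylated adaptors and the DNA was bisulfite converted before sequencing, and in the CTCF-ChIP group Tn5 carried Nextera adaptors and the DNA was not converted. The unconverted aliquots with methylated adaptors, CTCF-M-ChIP-NC, also had 2 libraries. The labels do not say whether the libraries of a group came from separate cultures, so p-values measure the spread between these libraries. Rows of a list that share start and end, which are several summits of 1 peak, were collapsed to 1 region, and regions of the 4 lists that share at least 1 bp were merged. This gave 54740 merged regions, each classed by the libraries that held it.

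CTCF is a zinc finger protein that binds a long, well conserved motif and that, together with the cohesin complex, anchors chromatin loops and the borders of topological domains. Its binding is sensitive to CpG methylation at certain motif positions, and methylation of its sites at imprinted genes is a textbook case of allele-specific insulation. M-ChIP reads the sites and their methylation from the same fragments, because bisulfite turns unmethylated cytosine into uracil, and the converted reads then carry fewer distinct letters when they are aligned to the genome.

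The data held 4 groups of regions that the comparison turned on. Regions in all 4 libraries numbered 23927, which was 43.7% of the merged regions. Regions in both ChIP libraries and in neither M-ChIP library numbered 6102 (11.1%), and are called ChIP-only. Regions in both M-ChIP libraries and in neither ChIP library numbered 44 (0.0804%), and are called M-ChIP-only. A further 9015 regions (16.5%) were in both ChIP libraries and 1 M-ChIP library. The motif at strong regions of each class is shown here, since most regions of each of these classes held one. For M-ChIP-only these are the strongest, the second and the fifth region. The third and the fourth, near Gm10718 and Gm21112, held no motif within 100 bp of the summit. Each sequence is from the GRCm38 (mm10) reference, read along the motif strand with 5 bases on either side, and the capitals mark the 19 bases of the best match to the CTCF matrix.
all 4 libraries, chr8:20424866-20424884, minus strand: tatagGGGCCACCAGAGGGCGCGAggcgg
all 4 libraries, chr1:85323360-85323378, minus strand: atgtgCCACCACTAGATGGTGCTAaacct
ChIP-only, chr2:150257005-150257023, plus strand: cagacTCACCAGAAGAGGGCATCAgacag
ChIP-only, chr14:49801606-49801624, plus strand: caatgAGAACAGTAGAGGGCAGCAgattc
M-ChIP-only, chr4:145851596-145851614, plus strand: agataTCGCCACCAGGGGGCAGCAggtgc
M-ChIP-only, chr4:147202076-147202094, plus strand: agataTCGCCACCAGGGGGCAGCAggtgc
M-ChIP-only, chr1:178146631-178146649, plus strand: tgcttTTTCCACAAGAGGGCACTGtgggc

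The region on chromosome 8 (20424713 to 20425032) covers an exon and a transcription start of 2610005L07Rik. Its fold enrichment, the MACS2 signal over the local background, was 42.1 and 32.7 in CTCF-M-ChIP replicates 1 and 2 and 52.4 and 60.6 in CTCF-ChIP replicates 1 and 2. The region on chromosome 1 (85323040 to 85323565) lies in an intron of Gm2619, with 37.2, 39.1, 45.1 and 45.8 in the same order. Both are thus strong in every library. The strongest ChIP-only region (chromosome 2, 150256903 to 150257383) is intergenic, 134 bp from a start of Gm14124. It had a fold enrichment of 19.1 and 21.8 in the ChIP libraries, and it overlapped a peak in all 6 accessibility libraries and in 1 of the 2 CTCF-M-ChIP-NC libraries. The next (chromosome 14, 49801477 to 49801749), 1036 bp from a start of Gm8417, had 18.7 and 21.7. It overlapped a peak in both CTCF-M-ChIP-NC libraries and in no accessibility library. Each of the 5 strongest ChIP-only regions was in at least 1 CTCF-M-ChIP-NC list, so unconverted libraries with methylated adaptors did hold them.

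The strongest M-ChIP-only region (chromosome 4, 145851464 to 145851675) is intergenic and had a fold enrichment of 23.4 and 21.3 in the M-ChIP libraries, above the 19.1 of the strongest ChIP-only region. The region at 147201962 to 147202143, also on chromosome 4, lies in an intron of C230088H06Rik and Gm26624 and had 9.48 and 11.1. Their printed 29 bases are the same letter for letter. Of the 31 M-ChIP-only regions with a motif, 4 shared their 29 bases with another of them, in 2 pairs. The regions of both pairs lay on chromosome 4, near Gm13246 and Gm13163 and near Gm13249 and Gm13144. None of the 5 strongest M-ChIP-only regions was in an accessibility library or in a CTCF-M-ChIP-NC library. The 50 bases at the summit occurred at 2 places in the reference for the region near Gm13246 and at 1 place for the region near Gm13163, so the value of the former is uncertain.

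**Figure D1:**
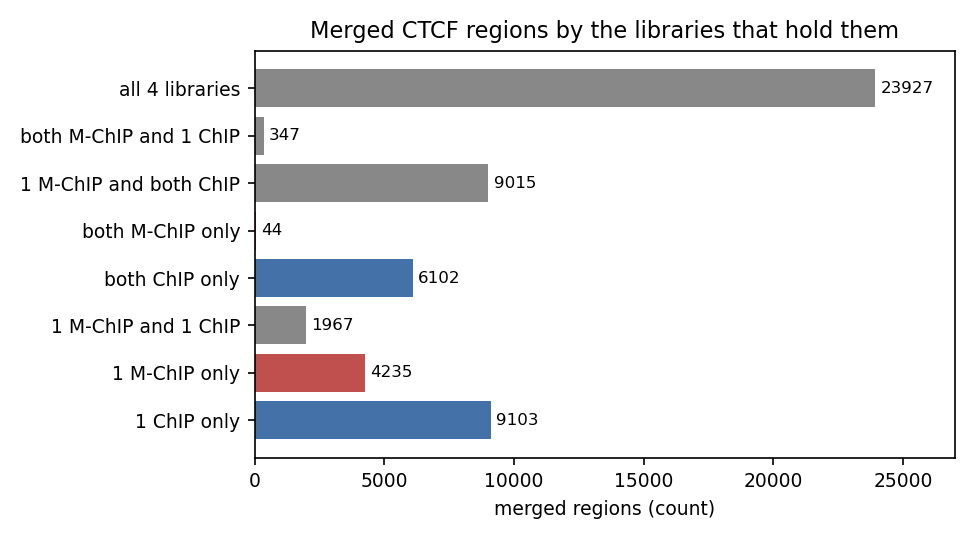
Number of merged CTCF regions (x axis, count) by the libraries that hold them (y axis). Bars are red for regions of M-ChIP libraries alone, blue for regions of ChIP libraries alone and grey for regions of both, and the number stands beside each bar. The 23927 regions of all 4 libraries are the largest class, and the 44 regions held by both M-ChIP libraries alone are too few for their bar to show.

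The 2 groups differed little in what M-ChIP found and more in what it missed. Of the 24318 merged regions in both M-ChIP libraries, 98.4% (95% Wilson interval, which covers counting error only, 98.2 to 98.5%) were in both ChIP libraries and 1.43% were in 1 of them. Of the 39044 merged regions in both ChIP libraries, 61.3% (60.8 to 61.8%) were in both M-ChIP libraries, 23.1% in 1 and 15.6% in neither. Most of the 347 regions in both M-ChIP libraries and 1 ChIP library were missed by CTCF-ChIP replicate 1, which held 11 of them while replicate 2 held 336. CTCF-M-ChIP replicate 1 held 30567 of the regions of both ChIP libraries and replicate 2 held 26302. Within the groups, 74.3% and 78.1% of the merged regions of CTCF-M-ChIP replicates 1 and 2 were in the other replicate, against 97.9% and 78.7% for CTCF-ChIP replicates 1 and 2. These counts changed with the lengths of the lists and with single libraries. With every list cut to the 31282 regions of highest −log10 q-value, 684 regions were M-ChIP-only and 1370 were ChIP-only. The 2 classes thus came closer in number while 21992 regions stayed in all 4 lists. As 44 regions were M-ChIP-only in the full lists, most of the 684 held a ChIP peak there. Without CTCF-M-ChIP replicate 1, which leaves replicate 2 to stand for M-ChIP, 3577 regions were M-ChIP-only and 12745 ChIP-only. Without replicate 2 the numbers were 753 and 8476, without CTCF-ChIP replicate 1 they were 54 and 14480, and without CTCF-ChIP replicate 2 they were 374 and 6947. Peak lists do not hold the depth of a library. The study's sequencing metrics list the CTCF-ChIP libraries as the deeper ones, so depth and the type of library cannot be told apart here.

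CTCF-ChIP regions had a higher median fold enrichment and a larger median width than CTCF-M-ChIP regions in both libraries of each group. Depth was not matched in either measure. Since the ChIP libraries were the deeper ones, depth and the type of library cannot be told apart here either. The median fold enrichment was 8.43 and 6.84 in CTCF-M-ChIP replicates 1 and 2, a mean of 7.63 ± 1.12 (SD, n = 2), and 10.05 and 11.5 in the CTCF-ChIP replicates, a mean of 10.8 ± 1.04 (SD, n = 2). The difference of M-ChIP minus ChIP was -3.15 (exact permutation test, two-sided, p = 0.333, Benjamini-Hochberg adjusted over 6 measures 0.5). With 2 libraries against 2, 0.333 is the smallest p the test allows. The median region width was 213 and 191 bp in CTCF-M-ChIP and 276 and 322 bp in CTCF-ChIP, a difference of -97 bp (exact permutation test, p = 0.333, adjusted 0.5). In lists of equal length the differences were -5.58 in fold enrichment and -134 bp in width. That cut removed regions of low −log10 q-value mainly from the longer ChIP lists, which tends to raise the ChIP medians. It is therefore no check of these 2 differences. The groups did not overlap in either measure, and the differences were larger than the SD within each group. The regions of all 4 libraries behaved alike, with a median fold enrichment of 9.52 and 7.65 in the M-ChIP libraries and 12.6 and 16.3 in the ChIP libraries, and a median width of 233, 210, 317 and 393 bp.

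The CTCF motif sat close to the summit in all 4 libraries. Over the 22917 regions of all 4 libraries with a motif, the median distance from summit to motif centre was 20 and 27 bp in CTCF-M-ChIP replicates 1 and 2 and 17 and 15 bp in CTCF-ChIP replicates 1 and 2. The summit lay within 50 bp of the motif centre at 89.1% and 77.8% of them in M-ChIP and at 95.03% and 96.8% in ChIP. The motif was sought within 100 bp of the summit of the strongest peak of each merged region. The median fold enrichment of these regions was higher in the ChIP libraries, so this choice favours ChIP summits. The order of the 2 groups in this distance was therefore partly set by the method.

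Per library, the remaining measures did not separate the groups, or did so only by a little. Accessible regions, meaning those that overlap a peak in at least 1 of the 4 M-ATAC and 2 ATAC libraries, made up 17.9% and 15.5% of CTCF-M-ChIP and 16.8% and 15.7% of CTCF-ChIP (difference 0.47 percentage points, exact permutation test, p = 1). Regions that overlap the 3 kb either side of an annotated gene start (GENCODE M21) made up 29.7% and 27.4% against 30.1% and 30.6%, a difference of -1.81 percentage points (exact permutation test, p = 0.333, adjusted 0.5). The whole region counts, so width can enter this share. A CTCF motif within 100 bp of the summit was present at 91.2% and 81.5% of CTCF-M-ChIP regions and at 92.2% and 90.7% of CTCF-ChIP regions (exact permutation test, p = 0.667, adjusted 0.8). The GC content of the 201 bp around the summit was 48.5% and 46.7% against 49.0% and 48.8% (exact permutation test, p = 0.333, adjusted 0.5). In motif share and GC content CTCF-M-ChIP replicate 2 stood lower than the other 3 libraries, and without it the M-ChIP minus ChIP difference was -0.21 percentage points for the motif and -0.36 for GC content.

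The lowest motif shares were in the regions that 1 M-ChIP library held alone. CTCF-M-ChIP replicate 2 had 3528 such regions and replicate 1 had 707, and a CTCF motif was found at 17.6% (16.4 to 18.9%) and 39.5% (35.9 to 43.1%) of them. In windows of the same length placed 5 kb from the summits of all merged regions the motif was found in 10.3%. Regions held by 1 ChIP library alone had it far more often, at 73.5% of the 744 of replicate 1 and 79.5% of the 8359 of replicate 2. The regions of CTCF-M-ChIP replicate 2 alone had a median fold enrichment of 3.56, a median width of 132 bp, a GC content of 39.1% and a promoter share of 16.7%, and 1.25% were accessible. The most frequent fold enrichment of that list, 3.557, was shared by 6.48% of its summits, and the list held 3183 different fold values against 26568 in CTCF-ChIP replicate 2.

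**Figure D2:**
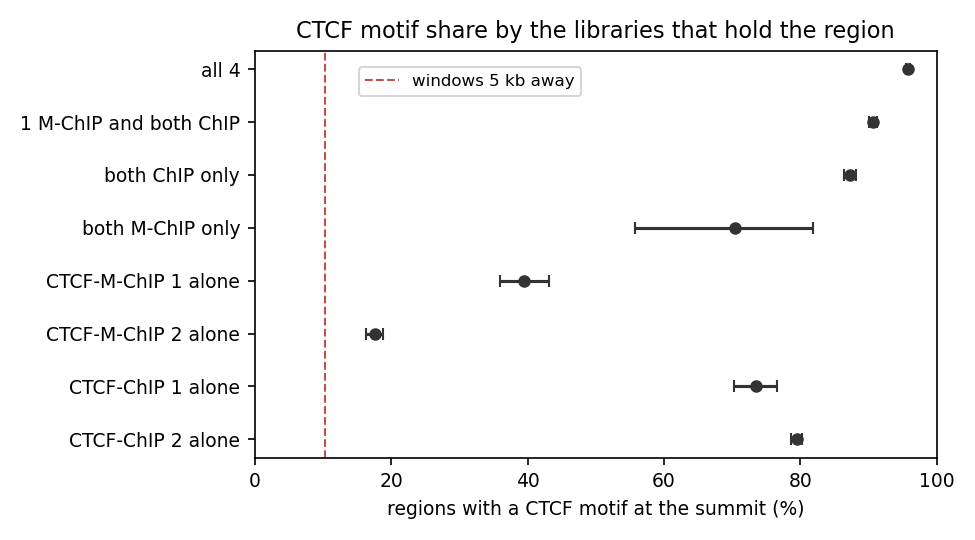
Share of regions with a CTCF motif within 100 bp of the summit (x axis, %) by the libraries that hold the region (y axis). Points are shares with 95% Wilson intervals, and the dashed line is the share of windows 5 kb away (10.3%). Regions held by CTCF-M-ChIP replicate 2 alone (17.6%) lie nearest to that line.

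CTCF motifs were present at 95.8% of regions of all 4 libraries (22917 of 23927), 90.7% of those in both ChIP libraries and 1 M-ChIP library and 87.3% (86.4 to 88.1%) of ChIP-only regions. Of the M-ChIP-only regions 31 of 44 had one (70.5%, 55.8 to 81.8%). The share was lower in ChIP-only regions than in regions of all 4 libraries on each of the 20 chromosomes compared (1 to 19 and X). No p-value is given between classes, since regions of 1 library are not replicates. Among the regions with a motif, the median motif score was 18.1 in all 4 libraries, 17.2 with 1 M-ChIP library missing and 16.7 in ChIP-only regions. The matrix and its limit were built from motif matches in M-ChIP peaks, so regions held by M-ChIP supplied sequences to it. The part of this in the motif shares and scores of the classes was not tested. A CpG at motif position 15, counted from the 5′ end of the 19 bases, was present in 36.5% (35.9 to 37.1%) of the motifs of all 4 libraries, 32.3% of those with 1 M-ChIP library missing, 28.97% (27.8 to 30.2%) of ChIP-only motifs and 4 of 31 M-ChIP-only motifs. At position 5, where methylation of the cytosine is known to weaken CTCF binding, the shares were 5.44%, 5.27% and 3.81%, and 1 of 31.

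ChIP-only regions were as GC-rich and as close to promoters as the regions of all 4 libraries, and were less often accessible. GC content was 49.3% against 49.0%, with a range over chromosomes of 46.8 to 50.5% and 46.3 to 50.1%. The 201 bp held 3.44 and 3.45 CpG on average. The promoter share was 31.4% (30.2 to 32.6%) against 30.1% (29.5 to 30.7%) and was lower in ChIP-only regions on 6 of 20 chromosomes. Accessible regions made up 12.0% (11.2 to 12.8%) of ChIP-only regions and 19.4% (18.9 to 19.9%) of regions of all 4 libraries, with the lower share in ChIP-only regions on 20 of 20 chromosomes. The same order held in each of the 6 accessibility libraries, from 5.39% against 7.81% in M-ATAC replicate 4 to 7.72% against 11.2% in ATAC replicate 2. Merged ChIP-only regions were narrower, with a median of 259 bp against 411 bp, and a wider region has more room for an overlap, so the part of width in the overlap was not tested. The difference in accessibility was not seen at matched ChIP strength. Within 10 bins of ChIP fold enrichment, described with the recovery values, neither M-ChIP library held 15.60% of accessible and 15.64% of other regions, a mean difference of -0.033 percentage points with the higher share in accessible regions in 6 of 10 bins. For GC content the same bins did show a difference. Neither M-ChIP library held 17.2% of regions with GC content above the median of their bin and 14.2% of the others. The mean difference was 3.05 percentage points, with the higher share in GC-rich regions in 7 of 10 bins.

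The unconverted libraries separated the same classes more widely. CTCF-M-ChIP-NC replicates 1 and 2 held 74.3% and 90.9% of the regions of all 4 libraries, 33.1% and 57.1% of those with 1 M-ChIP library missing, and 10.8% and 26.8% of ChIP-only regions. They held 0 of 44 M-ChIP-only regions, which allows a share of up to 6.82%, and 5 of 44 (11.4%, 4.95 to 23.98%). Most ChIP-only regions were thus also missing from either unconverted list, while CTCF-M-ChIP-NC replicate 2 held 1636 of the 6102.

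**Figure D3:**
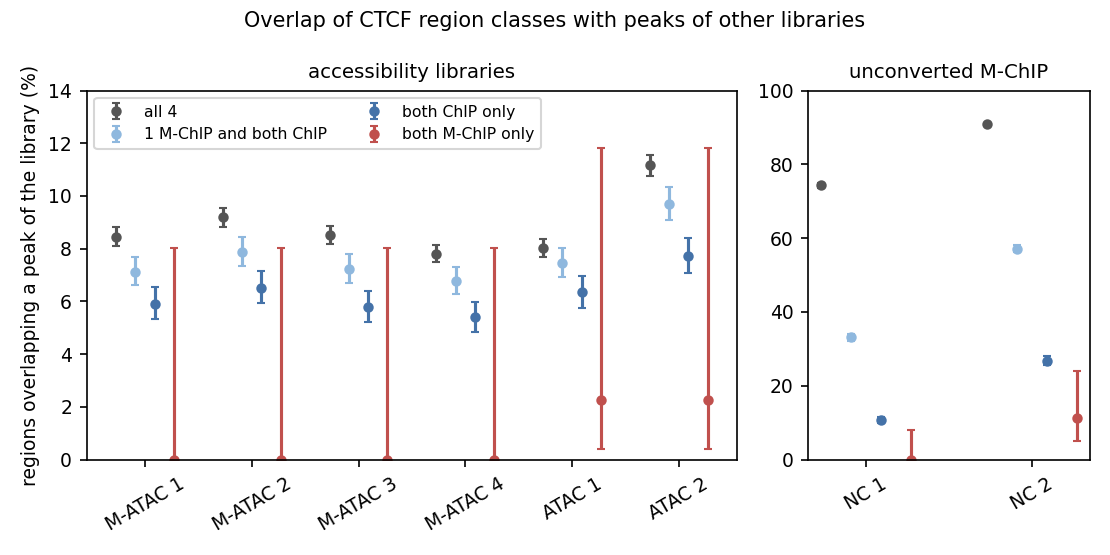
Share of regions of each class that overlap a peak of a further library (y axis, %), for the 4 M-ATAC and 2 ATAC libraries on the left and the 2 CTCF-M-ChIP-NC libraries on the right, with a scale of their own. Points are shares and bars 95% Wilson intervals, and in all 8 libraries the regions of all 4 CTCF libraries lie highest and the ChIP-only regions (blue) below those with 1 M-ChIP library missing.

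M-ChIP-only regions differed from ChIP-only regions in composition. Their GC content was 42.9%, a difference of -6.44 percentage points (95% interval -9.09 to -3.795), and their CpG number was 1.86. Repeats marked in the reference covered 42.1% of the 201 bp, against 34.1% in ChIP-only regions and 25.3% in regions of all 4 libraries. These traits were not particular to the 44. The 347 regions in both M-ChIP libraries and 1 ChIP library had a GC content of 43.3%, a CpG number of 2.01 and 38.2% repeats. Of those 347, 92.8% held a motif. The difference in motif share was -16.8 percentage points (-31.5 to -5.42) and that in accessible share was -9.72 (-11.8 to -0.16). The promoter share was 31.8% (14 of 44), with a difference of 0.44 percentage points whose interval of -11.4 to 15.2 holds both directions. In lists of equal length the promoter share was 23.5% of 684 M-ChIP-only and 33.9% of 1370 ChIP-only regions, a difference of -10.4 percentage points. Most of the 684 held a ChIP peak in the full lists, so they differ in kind from the 44. For starts within 1 kb the difference in the full lists was -1.15. The single accessible region lay near Gm43905 on chromosome 6 and overlapped a peak in both ATAC libraries. The intervals cover counting error only, and the 44 regions set their width. Leaving out CTCF-ChIP replicate 2, which enlarged the class to 374 regions, turned the motif difference to 3.09 percentage points, and in lists of equal length it was -2.50. Without CTCF-M-ChIP replicate 1 the differences were -70.6 percentage points for the motif, -15.1 for promoters, -13.4 for accessibility and -10.6 for GC content, and without replicate 2 the motif difference was -47.6.

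The 50 bases at the summit, the length of the sequencing reads, were looked up in the reference as a measure of how uniquely a read can be placed. They occurred at 2 or more places for 0.64% of regions of all 4 libraries, 3.26% of ChIP-only regions and 7 of 44 M-ChIP-only regions. After each C was turned into T on either strand, as bisulfite does to unmethylated cytosine, the shares were 2.82% (2.61 to 3.03%), 9.88% (9.16 to 10.7%) and 13 of 44. The share after conversion was higher in ChIP-only regions than in regions of all 4 libraries on 20 of 20 chromosomes. Reads were paired, and their mates, which can place a read, do not enter this measure.

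Among the 44 regions, 7 had a fold enrichment over 8 in both M-ChIP libraries and 16 had less than 4 in at least 1 of them. Of the 7 stronger ones 5 had a motif, 0 were in a CTCF-M-ChIP-NC library and 4 had a summit sequence found at 2 or more places after conversion. The nearest ChIP region lay within 1 kb of 1 of the 44 and within 10 kb of 10, and the median distance was 21030 bp. Near genes, Fthl17c, a ferritin heavy chain-like gene on the X chromosome, had an M-ChIP-only region 1727 bp from a start with a fold enrichment of 21.3 and 8.89. Paxx, which encodes a DNA end-joining factor, had one 878 bp from a start with 6.80 and 5.27.

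The share of ChIP regions that M-ChIP held rose with their strength in ChIP. The 39044 regions of both ChIP libraries were put into 10 bins by the lower of their 2 ChIP fold enrichments. In the weakest bin (2.18 to 5.35) CTCF-M-ChIP replicates 1 and 2 held 28.5% and 21.1%, and neither held 59.6%. In the fifth bin (8.78 to 10.1) they held 86.1% and 69.1%, and in the strongest bin (17.2 to 52.4) 99.8% and 98.5%, with 0.10% in neither. CTCF-M-ChIP-NC replicates 1 and 2 rose in the same way, from 8.25% and 23.9% to 97.1% and 99.4%. The 6102 ChIP-only regions had a median ChIP fold enrichment of 6.04 and 7.79 in CTCF-ChIP replicates 1 and 2.

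**Figure D4:**
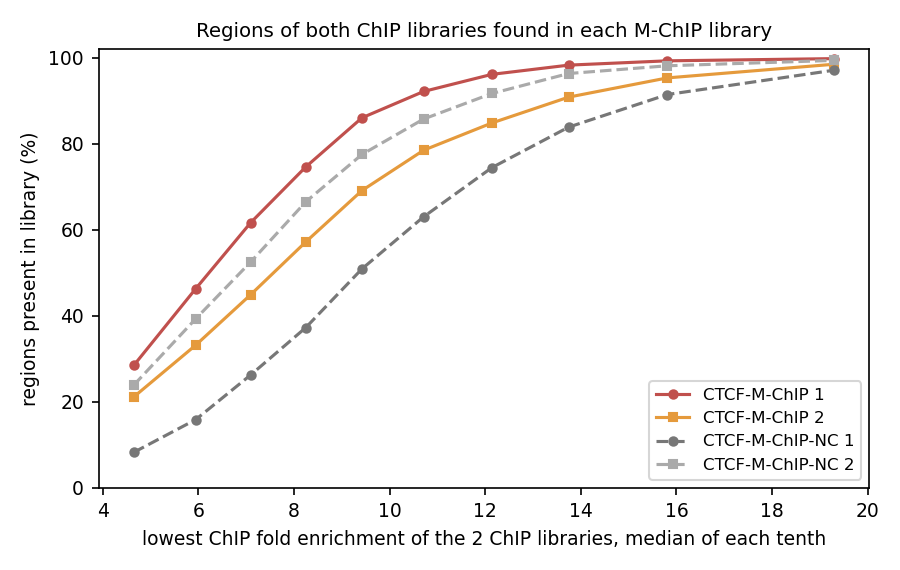
Share of the regions of both ChIP libraries that each library with methylated adaptors held (y axis, %), by the lower of the 2 ChIP fold enrichments (x axis, median of each of 10 equal bins). Lines are the bisulfite converted (solid) and unconverted (dashed) libraries. All 4 rise to between 97.1% and 99.8% in the strongest bin.

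Within these bins, recovery went with GC content in different ways in the CTCF-M-ChIP replicates. In replicate 2, regions with a GC content above the median of their bin were held less often in 10 of 10 bins, with differences of -16.4 to -0.96 percentage points, for example at 24.6% against 41.1% in the second bin. In replicate 1 they were held more often in 8 of 10 bins, with differences of -4.44 to 2.102 percentage points. The unconverted replicates also went apart, with 9 and 6 of 10 bins higher and mean differences of 5.55 and -2.19 percentage points. For accessible regions the mean difference was 2.30 percentage points in CTCF-M-ChIP replicate 1 and -3.63 in replicate 2, and for promoter regions it was 0.94 and -2.55, so neither had 1 direction in the group. A motif went with higher recovery in both, by a mean of 3.39 percentage points in replicate 1 (9 of 10 bins) and 11.6 in replicate 2 (10 of 10 bins). The origin of the matrix in M-ChIP peaks limits this comparison too. Regions whose summit sequence was at 2 or more places after conversion were held less often in both, with a mean difference of -10.2 percentage points in replicate 1 (9 of 10 bins lower) and -2.55 in replicate 2 (8 of 10). In the unconverted replicates the same regions were held less often too, with mean differences of -8.29 and -1.79 percentage points. The share held by neither M-ChIP library was higher at such regions in 9 of 10 bins, by a mean of 6.14 percentage points.

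**Figure D5:**
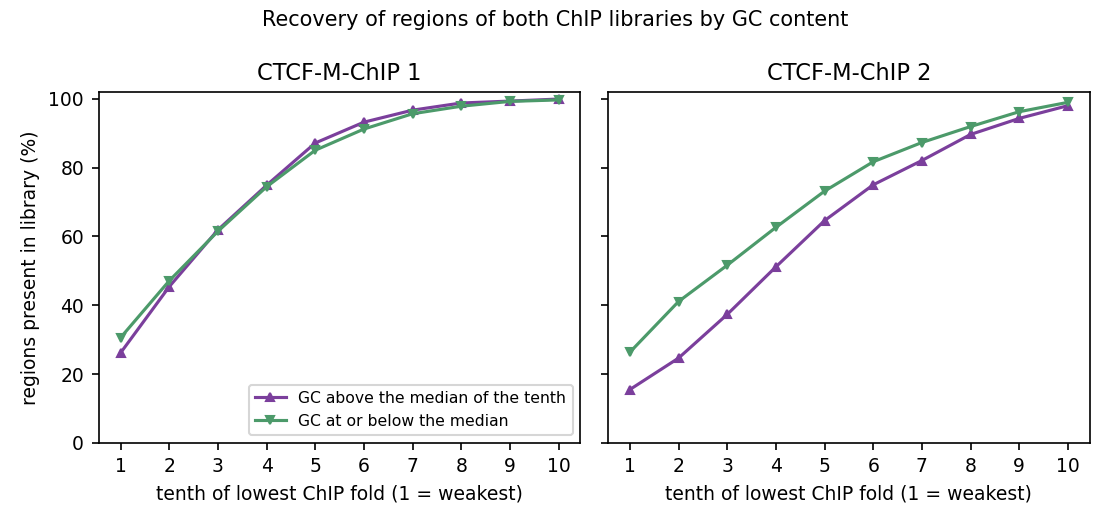
Share of the regions of both ChIP libraries held by CTCF-M-ChIP replicate 1 (left) and replicate 2 (right) (y axis, %), by bin of ChIP fold enrichment (x axis, 1 is weakest), for regions above the GC median of their bin (purple) and the rest (green). The lines run together in replicate 1, and in replicate 2 the GC-rich regions lie lower in all 10 bins.

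Among the 23927 regions of all 4 libraries, fold enrichment was compared on the log2 scale after the median of each library was subtracted. Pearson's r across regions, as a description over points that share their libraries, was 0.81 between the ChIP replicates, 0.54 between the M-ChIP replicates, 0.69 and 0.66 between CTCF-M-ChIP replicate 1 and the ChIP replicates, and 0.54 and 0.50 for CTCF-M-ChIP replicate 2. CTCF-M-ChIP replicate 1 was thus closer to either ChIP library than to the other M-ChIP library. The centred difference, M-ChIP minus ChIP, was under 1 in size on the log2 scale for 99.5% of regions, and its 5th and 95th percentiles were -0.50 and 0.59. By limma, 0 regions were higher in M-ChIP (0% of those tested) and 0 were higher in ChIP (0%) at a Benjamini-Hochberg adjusted p below 0.05. At an unadjusted limma p below 0.05, 1389 of the 23927 were higher in M-ChIP and 802 in ChIP. With quantile normalization in place of centring these counts were 1083 and 1198, so the excess in M-ChIP was not kept. Regions that do not differ also reach such a p, so these counts are not read as differences. In simulated data of the same size, 200 regions were changed and all regions of a group had the same spread. There 0% of regions changed by 1 on the log2 scale and 100% of those changed by 2 were called. Differences of 2-fold were thus not detectable in that setting, and other spreads or numbers of changed regions were not simulated. Without centring, 5417 regions were higher in ChIP and 0 in M-ChIP, with a median difference of -0.71 over all regions. Without CTCF-M-ChIP replicate 1 the counts were 1608 higher in M-ChIP and 1306 higher in ChIP, and without replicate 2 they were 281 and 306. In each of these fits the lone M-ChIP library was assumed to vary like the ChIP libraries.

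The regions with the largest centred differences, which did not pass the test, are given by their values. An intronic region of Sfi1, a centrosomal gene (chromosome 11, 3147733 to 3148322), had a fold enrichment of 10.3 and 14.2 in M-ChIP and 5.32 and 7.02 in ChIP, a centred log2 difference of 1.73 (SE 0.30, limma, Benjamini-Hochberg adjusted p = 0.279). An intergenic region 13574 bp from Cep68, another centrosomal gene, had 18.04 and 22.3 against 9.41 and 15.3, a difference of 1.49 (SE 0.24, limma, adjusted p = 0.261). In the other direction, an intronic region of Sgcd, which encodes a sarcoglycan (chromosome 11, 46904318 to 46904689), had 4.74 and 5.22 in M-ChIP and 18.3 and 21.1 in ChIP, a difference of -1.23 (SE 0.27, limma, adjusted p = 0.422). An intronic region of Osbpl10, which encodes an oxysterol-binding protein family member, had 4.66 and 3.99 against 14.1 and 18.6, a difference of -1.16 (SE 0.28, limma, adjusted p = 0.422). The remaining 6 named by the same rule lay near Igkv4-53, Klrb1c, Gm25546, AC164314.1, Gm8963 and Serpinb13, with differences of 1.40 to 1.47 and -1.14 to -1.07.

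Across the shared regions the centred difference went with GC content in CTCF-M-ChIP replicate 2 and hardly in replicate 1. Spearman's rho with GC content over the 23927 regions was -0.19 for replicate 2 and -0.0037 for replicate 1. The median difference from ChIP fell from 0.19 in the fifth of regions with the lowest GC content to -0.082 in the fifth with the highest in replicate 2, and was 0.062 and 0.065 in replicate 1. With the motif score rho was 0.087 for replicate 2 and 0.022 for replicate 1. These correlations are weak, and they are given as a description of 1 library at a time.

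Methylation was read in the authors' table of merged CTCF M-ChIP replicates, which holds cytosines of CpGs in CTCF motifs of merged M-ChIP peaks, for cytosines with at least 5 reads. It was 9.06% (8.96 to 9.16%) of 336005 reads over 27483 cytosines in regions of all 4 libraries, 16.5% (16.2 to 16.9%) of 41068 reads over 5286 cytosines in regions with 1 M-ChIP library missing, and 29.3% (27.9 to 30.7%) of 3971 reads over 600 cytosines in ChIP-only regions. The order held in each of the 4 bins of ChIP strength with a value for ChIP-only regions. With the regions of both ChIP libraries in 5 bins of the lower ChIP fold enrichment, the value was 16.7% in regions of all 4 libraries and 26.6% in ChIP-only regions of the weakest bin (2.18 to 6.52), and 9.68% and 27.2% in the fourth bin (11.4 to 14.7). The strongest bin held too few ChIP-only cytosines for a value. These bins match strength in ChIP but not in M-ChIP, which defines the classes and supplied the reads of the methylation. They are therefore no check of the part of M-ChIP strength in this order, which was not tested. The table covered 388 of the 6102 ChIP-only regions and 10925 of the 23927 regions of all 4 libraries, and the median coverage was 6 and 11 reads per cytosine. Over cytosines with 5 to 7 reads, a range set after the data were seen, the values were 16.4%, 20.8% and 29.6%, so the difference between ChIP-only regions and regions of all 4 libraries was 13.2 in place of 20.3 percentage points. The table has no replicates, so no test between libraries was possible. The intervals treat every read as independent, though reads share cytosines and regions, so they are too narrow. In the table of merged M-ATAC replicates, whose cytosines lie in M-ATAC peaks, methylation was 2.37% over 69875 cytosines in regions of all 4 libraries and 1.74% over 12084 in ChIP-only regions. That table is not limited to motifs, so the values of the 2 tables are not compared.

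The genes with a region within 3 kb of a start were counted for lists of known function, beside all 21938 protein-coding genes, of which 22.3% had a region of all 4 libraries, 9.61% a region in both ChIP libraries and 1 M-ChIP library, 6.78% a ChIP-only region and 0.0456% an M-ChIP-only region. A gene can be in several classes. No listed gene had an M-ChIP-only region. Of 18 pluripotency genes, 4 had a region of all 4 libraries and 0 had a ChIP-only region. The 4 were Klf4, Tbx3 and Lin28a, regulators of the pluripotent state, and Tdgf1, which encodes the Nodal co-receptor Cripto. Another 3, among them Sox2, a core factor of pluripotency, had a region in both ChIP libraries and 1 M-ChIP library. Of 39 Hox genes, the patterning genes of the body axis, 13 had a region of all 4 libraries and 0 had a ChIP-only region. Of 11 genes of CTCF and cohesin, 6 had a region of all 4 libraries, among them Ctcf itself, the cohesin subunits Smc3, Stag1 and Stag2 and the cohesin loader Nipbl. Ctcfl, the germline paralog of CTCF, had a ChIP-only region with a fold enrichment of 6.55 and 7.63.

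Imprinted genes, which are expressed from 1 parental allele and many of which have CTCF sites with allele-specific methylation, had a region of all 4 libraries in 5 of 22 and a ChIP-only region in 4 of 22. A region in both ChIP libraries and 1 M-ChIP library was present in 6 of 22. Over all protein-coding genes the shares were 22.3%, 6.78% and 9.61% for these classes in turn. The list also holds non-coding genes such as H19, and its counts were not tested against those shares. The 5 with a region of all 4 libraries were Peg3, Zim1, Meg3, Grb10 and Plagl1. The 4 with a ChIP-only region were Cdkn1c (6.12 and 9.71 in CTCF-ChIP replicates 1 and 2), Mest (8.12 and 6.84), Zrsr1 (3.90 and 5.50) and Impact (4.13 and 6.55). The Zrsr1 region held no motif within 100 bp of its summit, and those of Mest, Zrsr1 and Impact were in no CTCF-M-ChIP-NC library. Mest also had a region in both ChIP libraries and 1 M-ChIP library. Cdkn1c encodes a cell cycle inhibitor. The GC content around the summit was 62.2% at Cdkn1c and 61.2% at Mest. H19, the imprinted non-coding RNA next to Igf2, had a region with no motif within 100 bp of its summit. That region (chromosome 7, 142580233 to 142580887) is wider than the 201 bp searched, so it may hold a motif elsewhere. Its fold enrichment was 4.50 in CTCF-M-ChIP replicate 1, with no value in replicate 2, and 4.75 and 5.24 in ChIP. All of these values lay below the medians of the regions of all 4 libraries in ChIP.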

How the data were processed

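Per the methods and labels, the authors trimmed reads with Trim Galore 0.4.4, aligned them to mm10 with Bowtie2 (ChIP, ATAC) or Bismark 0.18.1 (M-ChIP, M-ATAC), removed low-quality reads and duplicates with SAMtools 1.3, and called peaks per library with MACS2 at a q limit of 0.01 with several summits per peak. The aligner of the unconverted controls was not given in the sources used here. The deposited lists give each summit a ratio (fold enrichment) and a −log10 q-value, without read depth. The authors' methylation tables hold counts of methylated and unmethylated reads per cytosine over merged replicates. The deposited expression table holds TPM of merged replicates. In it the 6 mESC markers ranged from 229 TPM (Zfp42) to 5394 (Dppa5a) and the 6 feeder markers from 0.08 (Lum) to 48.7 (Col1a1); their part in the results was not tested.

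Coordinates are mm10, 1-based; all 43074 deposited motif matches equalled the GRCm38 reference. Each merged region took the summit and fold enrichment of its strongest peak. The CTCF matrix was built from the deposited matches, which come from M-ChIP peaks, with 1 pseudocount per base, and a window held a motif if its best score on either strand reached the 5th percentile of theirs. Libraries were compared by exact permutation tests, and regions of all 4 libraries with limma 3.58.1 (R 4.3.3; trend and robust) on log2 fold enrichment. Overlap code was checked against bedtools 2.31.1, and limma was tested on simulated data. Python 3.11.15, numpy 2.4.6, pandas 2.3.3 and scipy 1.17.1 were used.

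Named regions were, in each class, the 5 with the highest fold enrichment in their weakest library, and the 5 shared regions with the largest centred difference in each direction; named genes were listed genes with a region of a single group within 3 kb. Fthl17c, Paxx and Gm43905, and the further listed genes, were chosen after their values were seen. The classes and gene lists were chosen with earlier results of these data known. Alternatives covered the q-value minimum, list length, overlap, accessibility, promoter and motif limits, summits, centring, the replicate block and leaving out each library. KLF4 lists, unconverted M-ATAC lists and merged peak lists were not used here.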

Additional observations from a re-analysis of the deposited data

How the results depend on the processing

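The fold enrichment, width, promoter share and GC content per library kept their direction in all alternatives run, with leave-one-out differences of -3.94 to -2.35, -120 to -74 bp, -2.93 to -0.68 percentage points and -2.21 to -0.36 percentage points. Lists of equal length gave -5.58 for fold enrichment and -134 bp for width, but they are no check of these 2, since the cut removes weak regions mainly from ChIP. The accessible share did not: its difference was -1.95 percentage points in lists of equal length, -0.39 for regions in both ATAC libraries, -0.27 for regions in all 4 M-ATAC libraries and -0.71 to 1.65 with 1 library left out, below 0 without CTCF-M-ChIP replicate 1 or CTCF-ChIP replicate 2. The motif share per library was 0.15 percentage points higher in M-ChIP at a −log10 q-value of at least 5. Regions of all 4 libraries numbered 15008 at 50% reciprocal overlap and 23949 to 30569 with 1 library left out. M-ChIP-only regions numbered 23 at the stricter q-value, 684 in lists of equal length, 1910 at 50% reciprocal overlap and 54 to 3577 with 1 library left out, where the highest count is without CTCF-M-ChIP replicate 1. ChIP-only regions numbered 1370 in lists of equal length and 6947 to 14480 with 1 library left out, where the highest count is without CTCF-ChIP replicate 1. Between M-ChIP-only and ChIP-only regions, leaving out a library gave -13.4 to -5.58 percentage points for accessibility, -15.1 to -2.72 for promoters, -70.6 to 3.09 for the motif and -10.6 to -5.50 for GC content, and equal lists gave -2.50 for the motif and -10.4 for promoters, against 0.44 over all regions. In limma, 2 regions were higher in M-ChIP at the stricter q-value and 5417 higher in ChIP without centring, and with 1 library left out the counts were 0 to 1608 and 0 to 1306. Over cytosines with 5 to 7 reads the methylation difference was 13.2 percentage points. The causes were not tested. The labels do not say whether same-numbered replicates of the 2 groups share more than a number. Their deviations correlated at 0.023, which cannot settle that. With the replicate block limma called 12 regions higher in M-ChIP and 2 higher in ChIP, and the sign-flip test kept the median fold difference at -3.15 (exact p = 0.5, the smallest it allows). Low counts limit the 44 M-ChIP-only regions. Unequal depth, which the lists do not hold, limits every count of regions found in 1 group and the differences in fold enrichment and width.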

Other observations

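The loci that the study shows held regions of several classes. Around Pisd-ps1, a pseudogene on chromosome 11, 5 ChIP-only regions lay within 20 kb of a start, with fold enrichments of 2.48 to 4.45 in CTCF-ChIP replicate 1 and 2.18 to 4.13 in replicate 2, and 2 regions of all 4 libraries lay beside them. One of those is the Sfi1 region with the largest difference in favour of M-ChIP. At Klf4 the region 1312 bp from a start had 9.22 and 6.32 in M-ChIP and 7.89 and 12.7 in ChIP. At Slc5a8, a monocarboxylate transporter gene, the region 985 bp from a start had 13.2, 10.5, 13.7 and 19.4 in the same order. At Nanog a region 7628 bp from a start was held by CTCF-M-ChIP replicate 2 (12.0) and not by replicate 1, with 7.68 and 11.2 in ChIP.

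Genes with regions of the different classes had like expression. The median TPM was 8.84 over 4842 protein-coding genes with a region of all 4 libraries within 3 kb of a start, 9.83 over 2094 with a region missing from 1 M-ChIP library, and 9.07 over 1480 with a ChIP-only region. Over all 21607 protein-coding genes in the table it was 2.77. The 10 genes with an M-ChIP-only region had a median of 3.96, with a 95% order-statistic interval of 0.72 to 36.98.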
